A study of Mus musculus with 5 samples.

Results

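Tight junction genes were examined across 5 single-cell RNA-seq libraries of mouse submandibular salivary gland cells. The set held 10 genes, namely 6 claudins (Cldn1, Cldn3, Cldn4, Cldn7, Cldn8 and Cldn10), occludin (Ocln), tricellulin (Marveld2), junctional adhesion molecule A (F11r) and the scaffold ZO-1 (Tjp1). They were taken by symbol from the deposited gene lists. All 10 were present, among 31053 genes in the list shared by the 7-day and tissue libraries and among 32285 in that of day 11, and 30406 genes were common to these lists.

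Tight junctions are the apical seals between neighbouring epithelial cells. Claudins are tetraspan membrane proteins that pair across the gap between cells and either close it or leave charge-selective pores, so that the claudins a cell makes set what may pass between cells. Occludin and tricellulin are MARVEL-domain proteins of the same strands, tricellulin where 3 cells meet, JAM-A is an immunoglobulin-like adhesion protein, and ZO-1 anchors the strands to the actin cytoskeleton. In the salivary gland, acini secrete a fluid that the ducts then modify, and both steps need a controlled paracellular path.

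All cells came from C57BL/6 mice, and the study used females only. Mouse salivary gland organoids (mSGOs), grown in Matrigel in WRY medium (a growth factor medium with Wnt3a and R-spondin1) from 4 animals, were left untreated (control) or irradiated on day 5 with 7 Gy of photons or 7 Gy of protons (plateau), and were collected on day 7. Untreated mSGOs were also collected on day 11, from another batch of 4 animals and in a separate run, and cells of freshly isolated gland gave the tissue library. The labels of the 7-day and tissue libraries give an age of 8 to 12 weeks, and the study's methods give the same range for the mice in general, although the day 11 label carries no age. Each mSGO library pooled cells of 4 animals, a number not given for tissue, a live sort on propidium iodide took 45000 cells for each library, and each group had 1 library, so no difference below has a replicate check or a p-value.

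Each library was summed over its kept barcodes and scaled to counts of unique molecular identifiers (UMIs) per 1000000 UMIs (CPM). Kept barcodes numbered 6494 (control), 15610 (photon), 15325 (proton), 9484 (day 11) and 1402 (tissue), with between 5932095 and 32077807 UMIs per library. Intervals are exact at the 95% level and cover counting error only. Median UMIs per barcode lay between 898.5 and 1049 in the 7-day libraries, and were 2386 in tissue and 3025 at day 11. Barcodes with at least 1% of UMIs from the nuclear transcript Malat1 made up 16.0% of the control, 10.0% of the photon and 8.95% of the proton library, 98.8% at day 11 and 11.3% of tissue, where 10 acinar secretory markers took 560328 CPM. Between 33 and 98 barcodes were shared by any pair of libraries, at most 0.559% of the smaller one.

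In GRCm39 (GENCODE vM39) the 3 shortest genes, Cldn3 (chr5:135015068-135016326, plus strand), Cldn4 (chr5:134973973-134975788, minus strand) and Cldn8 (chr16:88357716-88360071, minus strand), had 1 exon in their canonical transcript. Cldn3 and Cldn4 were neighbours, 39.3 kb apart and on opposite strands with no listed gene between them. The longer claudin genes were Cldn7 (chr11:69852648-69858711), Cldn1 (chr16:26175392-26190596) and Cldn10 (chr14:119025320-119112901). Ocln (chr13:100630334-100689535) and Marveld2 (chr13:100732464-100753489) lay 42.9 kb apart on the same strand, with 1 listed gene (Gm48596) between them. F11r lay at chr1:171265092-171292958, and Tjp1, the longest of the genes with a span of 232 kb, at chr7:64945898-65177529. No other gene shared exon bases on the same strand with any of the 10, and 4 (Cldn3, Cldn7, Ocln and F11r) overlapped an exon of a gene on the opposite strand.

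The promoters are shown for Cldn3, Cldn4 and Ocln, which were lower in the photon library than in the control, and for Cldn10, whose level stood at 174 CPM in tissue and below 1 CPM in the mSGO libraries. RefSeq windows of GRCm38.p6, from 250 bases before to 50 bases after a start site, were found for 9 of the 10 genes (13 windows). The 250 bases before the start are printed 5′ to 3′ on the gene's strand, with capitals at motif matches on either strand. The motifs searched were GGGCGG of SP and KLF factors and the E-box CAGGTG. Also searched were TGANTCA, the AP-1 site, and TATAAA, the TATA box. The TEAD site GGAATG and the Grainyhead-like site AACCGGTT completed the set.
Cldn3 (window chr5:134985964-134986263, plus strand): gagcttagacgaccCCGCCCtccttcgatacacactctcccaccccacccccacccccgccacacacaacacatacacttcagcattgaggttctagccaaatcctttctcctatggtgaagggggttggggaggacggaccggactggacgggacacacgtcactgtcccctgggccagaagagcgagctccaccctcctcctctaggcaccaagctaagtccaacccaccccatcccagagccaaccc
Cldn4 (window chr5:134946885-134947184, minus strand): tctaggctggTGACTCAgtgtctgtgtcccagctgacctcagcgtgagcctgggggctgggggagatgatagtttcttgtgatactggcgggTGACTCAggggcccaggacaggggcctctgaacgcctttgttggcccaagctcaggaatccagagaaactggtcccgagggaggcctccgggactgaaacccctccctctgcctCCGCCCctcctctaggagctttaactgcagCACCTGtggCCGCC
Ocln (window chr13:100552449-100552748, minus strand): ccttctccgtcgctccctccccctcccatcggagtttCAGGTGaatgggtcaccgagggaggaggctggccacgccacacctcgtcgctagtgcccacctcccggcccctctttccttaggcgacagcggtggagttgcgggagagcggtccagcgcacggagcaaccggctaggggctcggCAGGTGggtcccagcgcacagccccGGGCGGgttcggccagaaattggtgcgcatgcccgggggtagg
Cldn10, upstream start (window chr14:118787621-118787920, plus strand): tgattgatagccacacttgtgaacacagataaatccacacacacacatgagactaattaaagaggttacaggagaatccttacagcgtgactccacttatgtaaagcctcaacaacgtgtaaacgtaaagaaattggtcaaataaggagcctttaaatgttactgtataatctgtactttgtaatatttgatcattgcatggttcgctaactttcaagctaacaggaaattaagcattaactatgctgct
Cldn10, downstream start (window chr14:118854700-118854999, plus strand): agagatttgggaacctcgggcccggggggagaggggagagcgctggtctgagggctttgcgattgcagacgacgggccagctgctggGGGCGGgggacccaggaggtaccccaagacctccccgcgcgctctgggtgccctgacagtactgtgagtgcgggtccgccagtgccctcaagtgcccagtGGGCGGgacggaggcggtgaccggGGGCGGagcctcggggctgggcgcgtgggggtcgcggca

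CAGGTG, the core of the E-boxes bound by Snail and Zeb repressors, was found in 8 of the 13 windows, in Cldn3, Cldn4, Cldn7, Ocln, F11r and Marveld2, against 20.2% of 32851 mouse windows of the same length. The 2 windows of Ocln overlap, and so do the 2 of Marveld2. The match at base 38 of the first Ocln window is the one at base 258 of the second, and that at base 267 of the first Marveld2 window is the one at base 294 of the second, so the windows are not independent. By gene the motif was found for 6 of 9, against 22.6% of 27025 genes, but 4 of the 9 have 2 windows, and among all genes with 2 windows the share was 33.2%. In Cldn3 the match began at base 282 of the window, after the start site, and is not in the printed stretch. GGGCGG was in 11 of the 13 windows (35.7% of all windows), with 1 Marveld2 match again shared by both of its windows, and its last match in Cldn4 runs past the printed end. By gene it was found for 9 of 9, against 38.2% of all genes and 52.9% of those with 2 windows. The median G and C share of all windows was 52.7%, and its part in these counts was not tested. TATAAA was found only in Marveld2 (13.6% of all windows) and GGAATG only in Cldn7 (14.7%). TGANTCA was found in Cldn4, at 2 places, and in F11r (7.81% of all windows), and AACCGGTT, the Grainyhead-like site, in no window of the set (0.146% of all windows). Of the 2 Cldn10 start sites, which give different first exons, the upstream window held 36.0% G and C and none of the motifs, and the downstream window 72.0% with 3 GGGCGG matches. Counts at the 3′ end of transcripts cannot tell the 2 starts apart, and a match is a run of letters, not a measured site.

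The 6 claudins made up nearly all claudin UMIs in every library, and which claudin led differed between mSGOs and tissue. Cldn4 gave 80.0% of claudin UMIs in the 7-day control (interval 79.5 to 80.6), 77.2% in the photon, 80.2% in the proton and 50.0% in the day 11 library (49.1 to 50.9), but 7.51% in tissue (6.30 to 8.87). Cldn10 gave 61.2% in tissue (58.8 to 63.5) and at most 0.129% in the mSGO libraries. The share of Cldn7 was 13.3% in the 7-day control and 30.5% at day 11. These are shares of 3′ UMI tags and are not scaled by transcript length. Of the claudins outside the set, the day 11 library held Cldn12 at 12.7 CPM, and no other claudin reached 5 CPM in any library.

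**Figure D1:**
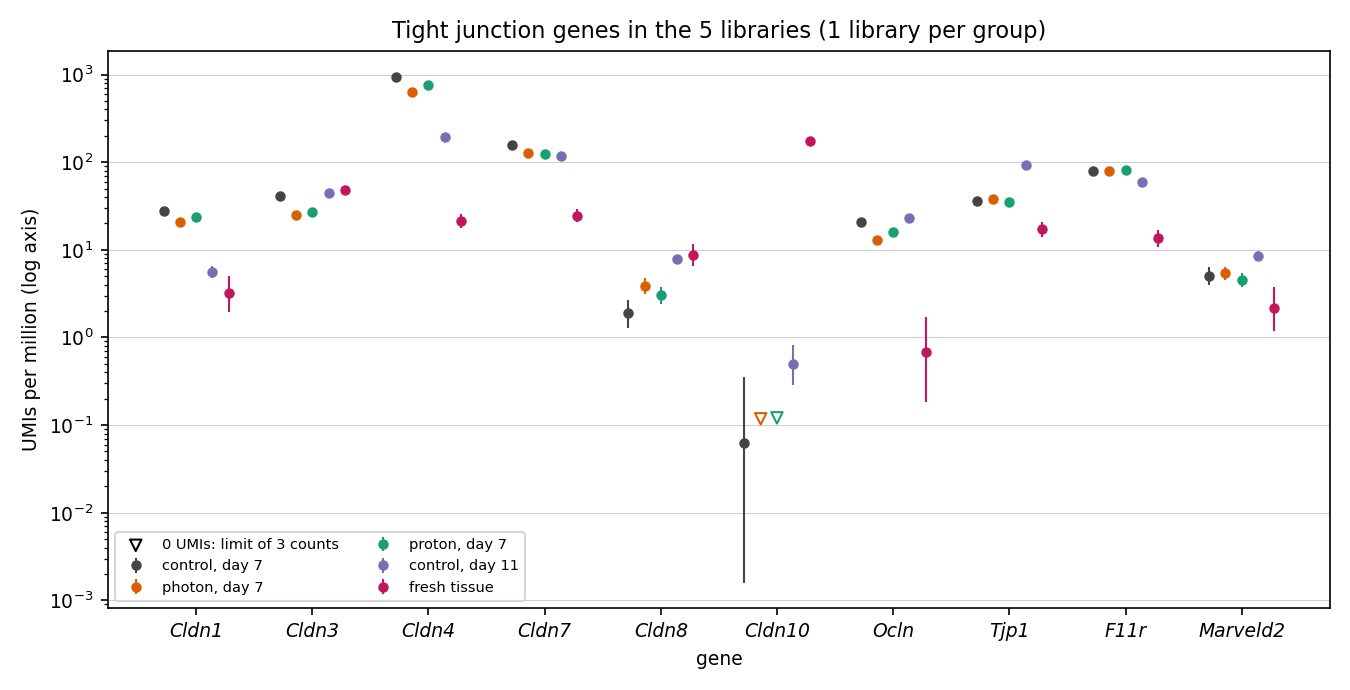
Level of each gene in CPM (log axis) in the 5 libraries, 1 library per group. Points are library sums, bars exact 95% Poisson intervals (counting error only), and open triangles mark libraries with 0 UMIs at the limit of 3 counts. Cldn10 stands at 174 CPM in tissue and below 1 CPM in all mSGO libraries, while Cldn4 is highest at day 7 and lowest in tissue.

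Cldn4, a claudin that the study also used to name luminal duct cells, was at 944 CPM in the control, 757 in the proton, 626 in the photon, 193 at day 11 and 21.4 in fresh tissue. No neighbours in that order had overlapping intervals. Cldn7, which binds EpCAM at the lateral membrane of many epithelia, was at 157 CPM in the control, 126 (photon), 125 (proton), 118 (day 11) and 24.6 (tissue), with overlapping intervals between photon and proton and between proton and day 11. Cldn3, a barrier-forming claudin of glandular epithelia, was at 48.2 CPM in tissue, 44.3 at day 11, 41.4 in the control, 27.3 in the proton and 25.0 in the photon library. Here the first 3 libraries overlapped in order and so did the irradiated pair, but the 2 groups of libraries were apart.

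Cldn1, the claudin that seals the epidermis, ran from 27.7 CPM (control) through 23.8 (proton), 20.8 (photon) and 5.58 (day 11) to 3.20 in tissue (19 UMIs). Its neighbouring libraries in that order overlapped in their intervals except between photon and day 11. Cldn8, a claudin of ion-transporting ducts, was low throughout, at 8.77 CPM in tissue (52 UMIs), 7.79 at day 11, 3.87 in the photon, 3.02 in the proton and 1.90 in the control library (30 UMIs), with an overlap between each pair of neighbours except day 11 and photon. Cldn10, a pore-forming claudin, had 1035 UMIs in tissue (174 CPM, interval 164 to 185), 16 at day 11 (0.499 CPM), 1 in the control and 0 in both irradiated libraries, where 0 UMIs allow up to 0.118 CPM (photon) and 0.121 CPM (proton).

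Among the other membrane proteins, Ocln was at 23.0 CPM at day 11, 20.8 in the control, 16.1 in the proton, 12.8 in the photon and 0.674 in the tissue library, where 4 UMIs were counted. The day 11 and control intervals overlapped, and the other libraries were apart in that order. Marveld2 was at 8.60 (day 11), 5.40 (photon), 5.06 (control), 4.52 (proton) and 2.19 CPM (tissue, 13 UMIs), with overlaps among the 7-day libraries and between proton and tissue. F11r was at 80.4 (proton), 79.2 (control), 79.0 (photon), 60.0 (day 11) and 13.5 CPM (tissue), so that only the 7-day libraries overlapped. Tjp1 was highest at day 11 (92.0 CPM), followed by photon (37.7), control (36.0), proton (35.5) and tissue (17.2), and again only the 7-day libraries overlapped.

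The first comparison the design implies is that of irradiated with control mSGOs on day 7. Several membrane components of the tight junction were lower in the irradiated libraries, the scaffold Tjp1 and F11r were at the control level within counting error, and Cldn8 was higher. In the photon library Cldn3 was 1.66-fold lower than in the control (log2 ratio -0.73, interval -0.89 to -0.57), Ocln 1.62-fold (-0.69, -0.92 to -0.47) and Cldn4 1.51-fold (-0.59, -0.63 to -0.56). Cldn1 was 1.33-fold lower (-0.41, -0.60 to -0.23) and Cldn7 1.24-fold (-0.32, -0.39 to -0.24). Cldn8 was 2.04-fold higher (1.03, 0.42 to 1.67) on 98 UMIs against 30. The intervals of Tjp1 (-0.084 to 0.22), F11r (-0.11 to 0.10) and Marveld2 (-0.31 to 0.51) included no difference.

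A gene counted as past the fold in the 7-day comparisons when its log2 ratio, with 1 CPM added to both levels, was at least 0.5, among genes with at least 50 UMIs in the 2 libraries together. By this rule 3 of the 9 genes with enough UMIs (Cldn3, Cldn4 and Ocln) were lower in the photon library, against 2.78% of 10532 genes, and 1 (Cldn8) was higher, against 6.76%. Cldn10 had too few UMIs in the 7-day libraries to enter. The median of the 9 was -0.31, beside 0.094 for all genes, and 6 of the 9 lay below 0. Cldn3 had a lower ratio than all but 1.11% of genes, Ocln all but 1.47% and Cldn4 all but 1.98%.

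The same 5 genes were lower in the proton library over all kept barcodes. Cldn3 was 1.52-fold lower than in the control (-0.60, -0.76 to -0.44), Ocln 1.29-fold (-0.37, -0.59 to -0.16), Cldn4 1.25-fold (-0.32, -0.35 to -0.29), Cldn7 1.25-fold (-0.32, -0.40 to -0.25) and Cldn1 1.16-fold (-0.21, -0.40 to -0.032). Only Cldn3 passed the fold downwards, 1 of 9 genes against 3.41% of 10443 genes, and 0 of 9 passed it upwards against 5.99%, Cldn8 being 1.59-fold higher (0.67, 0.044 to 1.33). The median of the 9 genes was -0.21, beside 0.088 for all genes. Both irradiated libraries were set against the same control library. Not every direction held in barcodes with at least 2500 genes, of which the control had 193. There the ratio to the control (with 1 CPM added) was 0.40 for Cldn1 in the proton and 0.23 for Cldn7 in the photon library, and 0 of 7 genes with enough UMIs passed the fold after protons, against 9.18% of all genes upwards and 5.04% downwards.

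**Figure D2:**
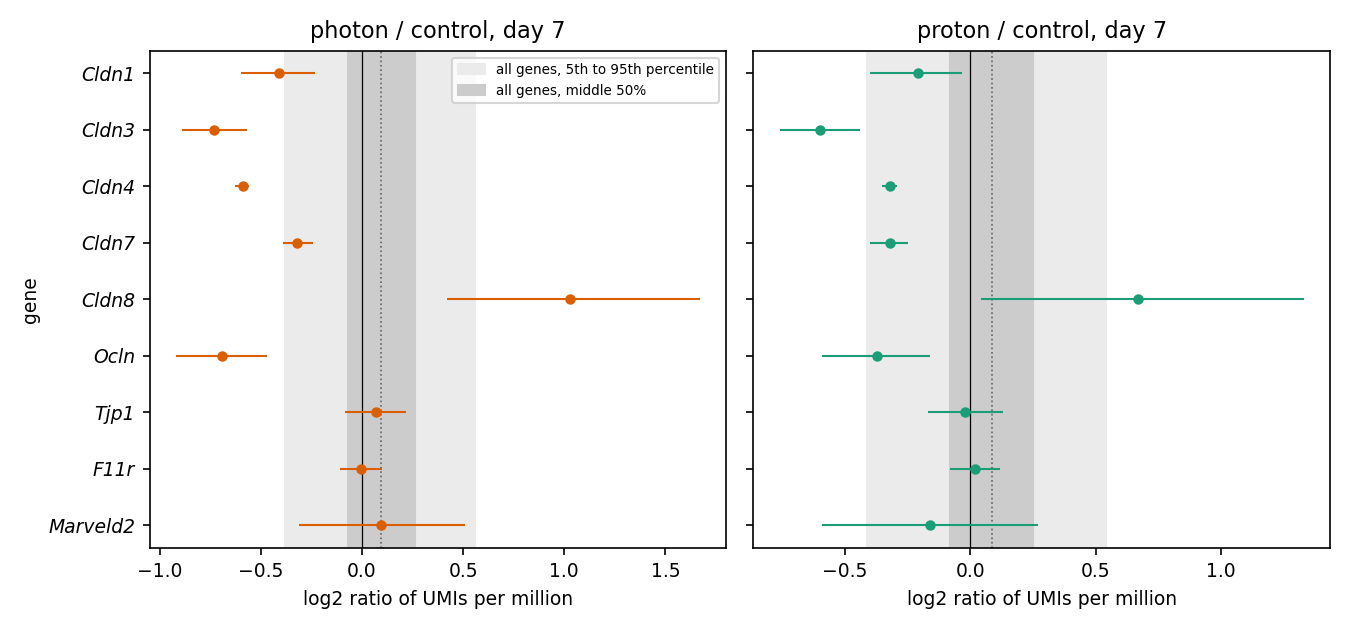
Log2 ratio of CPM in the photon (left) and proton (right) library over the 7-day control for 9 genes (Cldn10 has too few UMIs). Points are ratios of library sums, bars exact 95% intervals for counting error, the wider grey band the 5th to 95th percentile and the narrower one the middle 50% of all genes (with 1 CPM added) and the dotted line their median, and Cldn3 lies left of the wider band in both panels.

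Proton and photon libraries were then compared directly. Cldn4 was 1.21-fold higher after protons (log2 ratio 0.27, interval 0.24 to 0.30), Ocln 1.25-fold (0.32, 0.11 to 0.54) and Cldn1 1.15-fold (0.20, 0.025 to 0.37). For Cldn3 (0.13, -0.030 to 0.29), Cldn7 (-0.0084, -0.080 to 0.063) and the remaining genes the interval included no difference. None of the 9 genes passed the fold, against 0.732% of 10785 genes higher and 1.37% lower.

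The irradiated libraries also differed from the control in other ways. The summed level of 10 cycling markers, all detected, was 435 CPM in the control, 257 in the photon and 294 in the proton library. The 8 luminal duct markers, all detected and without Cldn4, were at 4821, 4239 and 4415 CPM, and the 6 basal duct markers, all detected, at 8650, 9576 and 9476 CPM. The 10 acinar markers, of which 6 or 7 were at 0, were at 31.3, 14.2 and 9.28 CPM, and the 6 pro-acinar markers, of which at most 1 was at 0, at 102, 85.8 and 85.3 CPM. Macrophage markers stayed at 20.1 to 34.4 CPM with 4 or 5 of 7 at 0, and fibroblast markers below 1 CPM with 4 or 5 of 6 at 0. The part of these shifts in the claudin levels was not tested, but values within clusters and within barcodes that hold nuclear transcript can be given.

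The 3 libraries of day 7 were merged and clustered without any tight junction gene among the variable genes, which gave 5 clusters. None of the 5 could be named from the listed markers. Clusters 1 to 3 had median Malat1 shares under 1%, and clusters 4 and 5 had 5.11% and 15.4%. Cldn4 was lower in the photon than in the control library in 5 of 5 clusters, with intervals apart in all 5 and log2 ratios of -0.58 to -0.36. In the proton library it was lower in 5 of 5, with intervals apart in 4 and log2 ratios of -0.46 to -0.038. In cluster 3, for example, it was at 1218 CPM in the control, 826 in the photon and 963 in the proton library. The barcodes compared there differed in depth, with 5230879 UMIs in 1049 control, 5187013 in 1958 photon and 5639837 in 1942 proton barcodes. The part of depth in these differences was not tested. Cldn3 was lower in both irradiated libraries in 5 of 5 clusters, with intervals apart in 4 (photon) and 3 (proton). In cluster 4, the largest of those with nuclear transcript, Cldn3 was at 35.3, 22.7 and 26.4 CPM, Ocln at 24.9, 15.2 and 19.7 CPM, and Cldn4 at 853, 634 and 831 CPM in control, photon and proton. There the proton intervals of Ocln (16.6 to 23.2) and Cldn4 (810 to 852) overlapped those of the control.

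Ocln was lower after photons in 5 of 5 clusters but with intervals apart in 2, and after protons in 4 of 5. Cldn7 went the other way in cluster 4, where it was at 134 CPM in the control and 139 in the photon library, and was lower after photons in the other 4. Cldn8 was higher in both irradiated libraries in all 5 clusters, with no intervals apart. Tjp1, F11r and Marveld2 had no interval apart in any cluster in either direction. Nor had Cldn1, which was lower after photons in 5 of 5 clusters. After protons it was lower in 3 and higher in 2, among them cluster 4 (34.4 CPM in the control, 36.7 in the proton library). Clusters 1 and 2 held 17.0% and 50.4% of the control barcodes but 49.3% and 28.1% of the photon barcodes, so the library sums weight the clusters unequally.

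**Figure D3:**
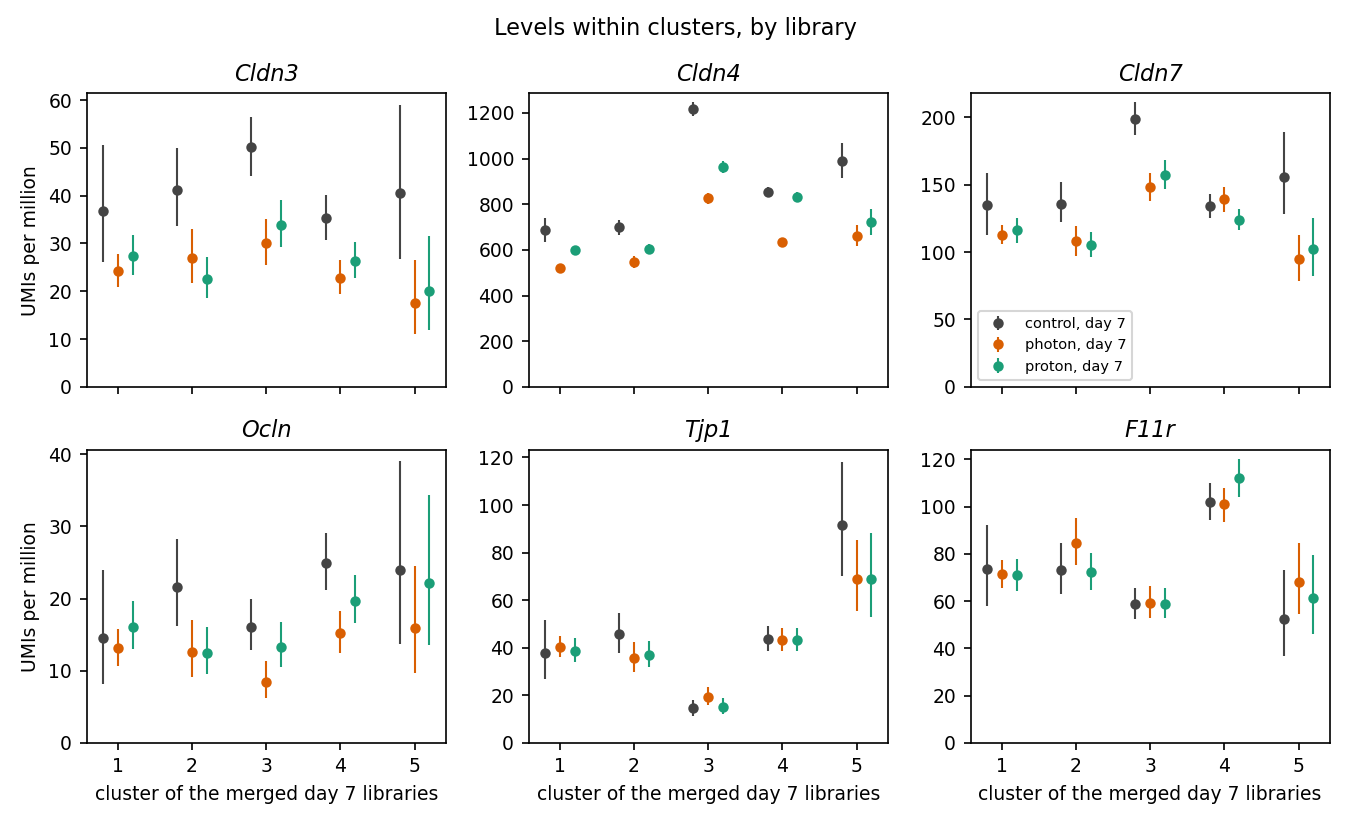
Levels in CPM within the 5 clusters of the merged 7-day libraries, by library, with exact 95% Poisson intervals. Cldn4 is lower in the photon than in the control library in every cluster, while Tjp1 and F11r have overlapping intervals in each.

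Restricted to barcodes with at least 1% Malat1, the photon to control ratios (with 1 CPM added) of Cldn3 (-0.69), Ocln (-0.68) and Cldn4 (-0.45) kept their direction, Cldn4 with a smaller ratio than over all kept barcodes (-0.59), and that of Cldn7 was -0.0043. In the proton library Cldn3 was at -0.50 there, Ocln at -0.32, Cldn4 at -0.10 and Cldn1 at 0.05. Within these barcodes 0 of 8 genes with enough UMIs passed the fold in the proton library, against 5.84% of all genes upwards and 4.73% downwards. In the photon library 3 of 9 did, Cldn3 and Ocln downwards and Cldn8 upwards (0.61), against 3.60% of all genes downwards and 7.46% upwards, and Cldn4 no longer did.

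Of 6 claudin partners and proteases, 0 passed the fold in either irradiated library, and Epcam, the EpCAM gene, was at 785 CPM in the control, 722 in the photon and 739 in the proton library. Of 18 plaque and scaffold genes with enough UMIs, 1 was higher after photons (Magi3, 5.69 and 10.9 CPM) and 0 lower, with a median of 0.10, and after protons 2 of 17 were higher (Magi3 at 9.36 CPM, and Patj, 4.49 and 7.18 CPM) and 0 lower. Jam2 was at 10.3, 13.6 and 15.4 CPM, and with Marveld1 (2.85 and 4.48 CPM) it passed the fold after protons, 2 of 7 other junction membrane proteins, against 0 of 7 after photons. Over all genes the shares past the fold were 6.76% higher and 2.78% lower after photons, and 5.99% and 3.41% after protons, so that 1 or 2 genes of lists this short say nothing about the lists.

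None of 11 polarity genes and none of 8 adherens junction genes passed the fold in either irradiated library. Of 11 epithelial and EMT transcription factors, 1 was lower in both, Ovol1, a repressor that keeps epithelial identity, at 12.3 CPM in the control, 6.08 in the photon and 6.49 in the proton library. Grhl3, a Grainyhead-like factor of epithelial barriers, was at 10.8, 7.38 and 9.36 CPM.

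The second comparison sets untreated mSGOs of day 11 against those of day 7. Cldn4 was 4.88-fold lower at day 11 (log2 ratio -2.29, interval -2.33 to -2.25) and Cldn1 4.96-fold lower (-2.31, -2.57 to -2.05). Tjp1 was 2.55-fold higher (1.35, 1.22 to 1.48) and Cldn8 4.11-fold higher (2.04, 1.49 to 2.64). Cldn7 (-0.41) and F11r (-0.40) were lower by less, Marveld2 was 1.70-fold higher (0.77, 0.40 to 1.14), and the intervals of Cldn3 (-0.040 to 0.23) and Ocln (-0.041 to 0.34) included no difference.

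These values have to be read against a shift of all genes. The median log2 ratio of the 12189 genes with enough UMIs was 0.99, and with the fold set at 1 for this comparison 2 of 9 genes of the set (Cldn8 and Tjp1) were higher against 49.8% of all genes, and 2 (Cldn1 and Cldn4) lower against 5.05%. With median-of-ratios scaling in place of total UMIs, 0 of the 9 were higher and 4 lower, against 20.9% of all genes higher and 16.8% lower. Cldn8 (0.72) and Tjp1 (0.30) were then under the fold, and Cldn7 (-1.44) and F11r (-1.42) joined Cldn1 (-2.96) and Cldn4 (-3.32) below it. Scaled to total UMIs, Cldn4 had a lower ratio than all but 0.943% of genes and Cldn1 all but 1.19%, whereas Tjp1 stood above 61.7%. The day 11 matrix was written by Cell Ranger 7.0.0, which by default also counts reads in introns, and the others name software version 3.0.1. The median ratio was 0.23 for genes spanning up to 5 kb (where Cldn3, Cldn4 and Cldn8 belong), 0.53 from 5 to 20 kb (Cldn1, Cldn7), 0.97 from 20 to 50 kb (F11r, Marveld2), 1.49 from 50 to 100 kb (Ocln) and 2.26 above 100 kb (Tjp1).

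The genes of the set thus lay 3.28 (Cldn4) and 3.12 (Cldn1) log2 units below the median of all genes, and only Cldn8 (0.61) and Tjp1 (0.34) above it. Tjp1 lay below the median of its own span class, and Cldn8 above that of its class. Age in culture, animals, run and software all differ between these 2 libraries and cannot be told apart. In the day 11 library the 6 basal duct markers were at 4200 CPM (8650 at day 7) and the 8 luminal duct markers at 8818 CPM (4821), all of them detected. The 10 granular or striated duct markers were at 213 CPM with 1 at 0 (2.78 CPM at day 7 with 5 at 0), the 6 pro-acinar markers, all detected, at 561 CPM (102) and the 10 cycling markers, all detected, at 108 CPM (435). The part of these markers in the levels of Cldn8 and the other genes was not tested.

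Among other genes of the pathway, 12 of 19 plaque and scaffold genes were higher and 0 lower, with Magi1 at 4.18 and 159 CPM and Patj at 4.49 and 140 CPM. The same fold was passed upwards by 49.8% of all genes and by 86.8% of those spanning over 100 kb, and downwards by 5.05% of all genes, so nothing particular to the lists is read from these counts. Ildr1, an angulin that recruits tricellulin to tricellular contacts, was at 3.10 CPM at day 7 and 32.1 CPM at day 11, and Crb3 at 79.3 and 18.1 CPM. Epcam was at 785 and 1292 CPM. Of the transcription factors Ovol1 (12.3 and 0.717 CPM) and Elf3 (206 and 29.5 CPM) had the largest differences, with 4 of 11 lower and 2 higher. Of 11 polarity genes 4 were higher, led by Pard3 (49.2 and 781 CPM), and 2 lower. Of 9 adherens junction genes 6 were higher and 2 lower, Nectin2 among them (83.0 and 16.6 CPM).

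Levels were then followed along a keratin axis, the share of the simple keratins Krt7, Krt8, Krt18 and Krt19 among these and the basal keratins Krt5, Krt14 and Krt15, in barcodes with at least 10 keratin UMIs and in 5 equal bins. At day 11 this took 7288 barcodes (76.8% of those kept), from 1275 in the most basal to 499 in the most simple-keratin bin. Cldn3 was at 19.2, 27.7, 43.9, 84.3 and 157 CPM from the basal to the simple-keratin bin, an 8.18-fold difference between the ends (log2 3.03, interval 2.69 to 3.39). Marveld2 differed 7.52-fold (4.62 to 34.8 CPM), Cldn7 3.32-fold (80.4 to 266 CPM), Cldn4 2.86-fold (131 to 375 CPM) and Ocln 2.75-fold (18.7 to 51.4 CPM). Each of these ended with its interval apart from that of the most basal bin.

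Tjp1 differed 1.36-fold (79.3 to 108 CPM, log2 interval 0.20 to 0.68), and the interval of F11r included no difference (59.0 and 56.5 CPM). Cldn1 was at 3.30 and 13.0 CPM and Cldn8 at 6.60 and 13.9 CPM in the end bins. Median UMIs per barcode were similar along the axis, between 3215 and 3936. Keratins mark cell state here and were not sorted on, and the bins are ranges of a share, not cell types.

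**Figure D4:**
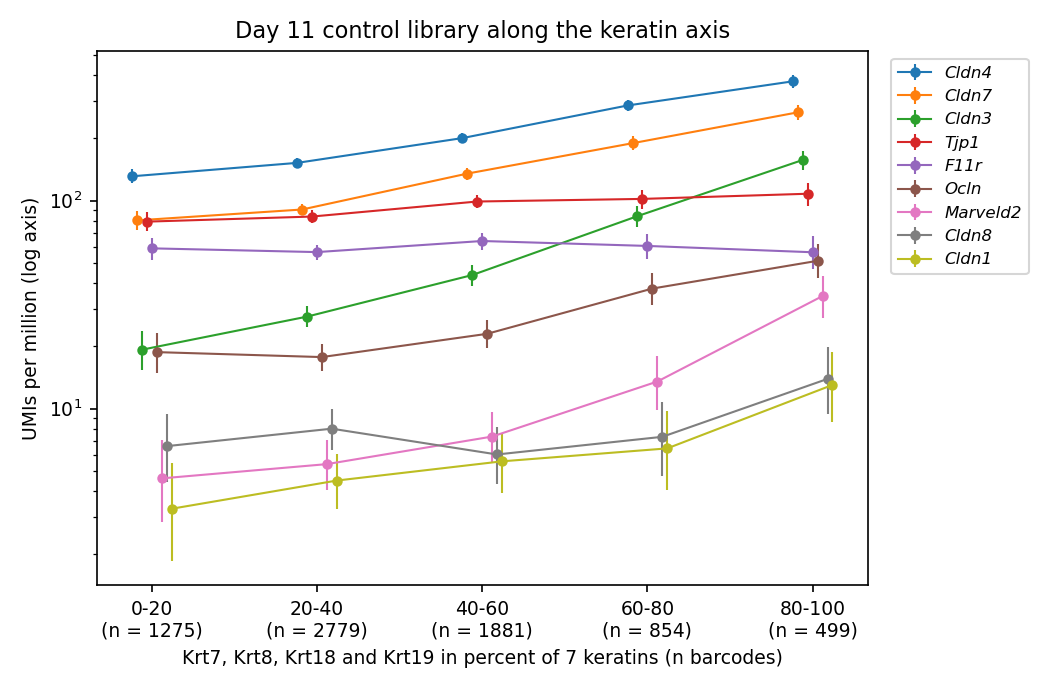
Level of 9 genes in CPM (log axis) in 5 bins of the simple-keratin share in the day 11 library, with exact 95% Poisson intervals and the number of barcodes in each bin. Cldn3 goes from 19.2 to 157 CPM and Marveld2 from 4.62 to 34.8 CPM, while F11r stays between 56.5 and 64.0 CPM.

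Along the same axis the 7-day libraries reached only part of this axis, with 22 to 32 barcodes in the fourth bin and at most 5 in the fifth, so bins 1 to 3 are given. Cldn3 was at 33.8, 43.4 and 61.6 CPM in the control, 20.0, 27.3 and 53.3 CPM in the photon and 21.0, 30.8 and 49.5 CPM in the proton library, and bins 1 and 3 had intervals apart in all 3. Cldn7 was at 144 and 172 CPM in bins 1 and 3 of the control (intervals overlapping), 116 and 200 CPM in the photon and 118 and 166 CPM in the proton library. Cldn4 was not higher towards simple keratins in the control, at 975, 1006 and 805 CPM in the control, 632, 651 and 655 CPM in the photon and 786, 780 and 788 CPM in the proton library. Within bins 1 and 2, which hold most barcodes, Cldn3 and Cldn4 were lower in both irradiated libraries than in the control with intervals apart. The barcodes compared differed in depth, with median UMIs of 1368, 1132 and 1040 in bin 1 and of 3533, 1169 and 1081 in bin 2 (control, photon, proton), and the part of depth in these differences was not tested.

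The day 11 library was also clustered, again without tight junction genes, into 11 clusters, 10 of them with at least 50 barcodes. The same 2 clusters had the highest levels of 5 genes. Cluster 7 (582 barcodes, led by Psca, Sprr2d and Sprr2f) held Cldn3 at 142 CPM (interval 128 to 157), Cldn4 at 432, Cldn7 at 261, Ocln at 54.8 and Marveld2 at 27.0 CPM. Cluster 3 (1393 barcodes, led by Klk1b11, Crisp3 and Arhgef38) held them at 75.3, 295, 204, 39.3 and 19.8 CPM. Cluster 10, 104 barcodes with a median of 759 UMIs and a Malat1 share of 11.0%, is left out of this order, since Ocln and Marveld2 rest there on 6 and 3 UMIs.

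At the other end, cluster 6 (641 barcodes, led by Igfbp2, Ndufa4l2 and Wfdc18) had Cldn7 at 34.9 CPM, Ocln at 6.67 and Marveld2 at 1.03 CPM (2 UMIs), and cluster 1 had Cldn3 at 17.3 CPM (13.9 to 21.3). Cldn4 was lowest in the cycling-like cluster 9 (53.7 CPM, 38.4 to 73.1) and in cluster 5 (84.1 CPM), although cluster 9 held Cldn7 at 138 CPM. Outside cluster 10 Tjp1 varied less, from 63.1 to 139 CPM, but in cluster 10 it was at 252 CPM (156 to 385, 21 UMIs). F11r was highest in cluster 4 (84.9 CPM) and lowest in the cycling-like cluster (21.5 CPM, 12.3 to 34.9). Cldn8 was at 11.9 CPM in cluster 1 and 11.6 CPM in cluster 3, with 1.91 CPM in cluster 5.

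The third comparison sets mSGOs against fresh tissue. Cldn10 was at 174 CPM in tissue against 0.0633 CPM (1 UMI) in the 7-day control, a ratio of 2757 with a counting interval of 494 to 109017, and Cldn8 was 4.62-fold higher (2.89 to 7.50). Cldn4 was 44.1-fold lower in tissue (37.0 to 52.9), Ocln 30.8-fold on 4 UMIs (11.9 to 114), Cldn1 8.63-fold, Cldn7 6.37-fold, F11r 5.87-fold and Tjp1 2.09-fold. Cldn3 was 1.16-fold higher (1.01 to 1.34). With the fold set at 1, 2 of 10 genes were higher (Cldn8, Cldn10) against 7.19% of 9608 genes, and 6 lower against 58.1%, the median of all genes being -1.23. In barcodes with at least 1% Malat1, F11r (-0.63) and Tjp1 (0.98) were under the fold (with 1 CPM added). There 2 of 8 genes with enough UMIs were higher and 4 lower, against 17.9% and 22.4% of all genes.

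Scaling by the median of ratios over genes in place of total UMIs moved this background to -0.24 and changed several values. Cldn3 was then at 1.33, Tjp1 at 0.066 and Marveld2 at -0.062 log2 units, while Cldn4 (-4.30), Ocln (-3.14) and Cldn10 (8.52) kept their direction. With this scaling 3 of the 10 genes were higher in tissue and 5 lower, against 15.7% of all genes higher and 26.1% lower. Day 11 mSGOs against tissue gave 6 of 10 genes higher (Cldn4, Cldn7, Ocln, Tjp1, F11r and Marveld2) against 80.6% of 12243 genes, and 1 lower (Cldn10) against 4.43%, with a median of all genes of 1.97. Cldn10 was 350-fold lower at day 11 than in tissue (214 to 614). Cldn3 (44.3 and 48.2 CPM) and Cldn8 (7.79 and 8.77 CPM) had intervals that included no difference, and both stood among the lowest 7.05% and 6.86% of all ratios in that comparison. With median-of-ratios scaling 1 of the 10 genes was higher at day 11 (Ocln, 2.30) and 4 were lower, namely Cldn10 (-8.29), Cldn3 (-2.25), Cldn8 (-2.09) and Cldn1 (-1.12), against 24.6% of all genes higher and 16.2% lower. Cldn4 (0.98), Tjp1 (0.23), Cldn7 (0.083), F11r (-0.025) and Marveld2 (-0.17) were then under the fold, so the higher calls of 5 of the 6 genes rest on the scaling.

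In the other lists most genes were lower in tissue than in the 7-day control, as was the median of all genes. All 8 adherens junction genes and 10 of 11 polarity genes were lower, against 58.1% of all genes lower and 7.19% higher, and Epcam was at 785 and 150 CPM. Of 17 plaque genes 11 were lower and 2 higher, near those shares, the largest differences being those of Ybx3 (602 and 36.6 CPM) and Cgnl1, paracingulin, at 6.39 CPM in the control and 46.2 CPM in tissue. Of 9 other junction membrane proteins 2 were higher and 3 lower, and Esam, an endothelial adhesion molecule of the JAM family, was at 0.316 CPM (5 UMIs) in the control and 21.4 CPM in tissue.

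The tissue library was clustered into 11 clusters, 9 of them with at least 50 barcodes. Acinar secretory markers took between 19.1% and 67.1% of UMIs in each of the 9, including 54.0% in the macrophage-like cluster, and these genes were thus counted in barcodes of every type. In the macrophage-like cluster (101 barcodes, median 2265 UMIs) 20.8% of barcodes had a Cldn10 UMI, 7.92% a Cldn4 UMI and 6.93% a Cldn3 UMI. In the acinar-like cluster (263 barcodes, median 2492 UMIs) these shares were 33.1%, 3.80% and 8.75%. Whether the claudin UMIs of the macrophage-like cluster came from its own cells or from free RNA was not tested.

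Cldn10 was highest in cluster 7 (272 CPM, 219 to 334) and in the Fam13a- and Smgc-led cluster 4 (230 CPM, 211 to 251, with 527 of the 1035 UMIs), followed by cluster 3 (183 CPM), cluster 1 (161 CPM) and the acinar-like cluster (157 CPM). It was lower in the duct-like (115 CPM) and macrophage-like (90.0 CPM) clusters and in both endothelial-like clusters, 8 (111 CPM) and 9 (21.6 CPM), although the intervals of the duct-like cluster (75.7 to 167) and of cluster 8 (63.7 to 181) overlapped those of clusters 1 and 3 and of the acinar-like cluster (130 to 188), and that of the macrophage-like cluster (57.0 to 135) reached cluster 1 and the acinar-like cluster. Per 1000000 acinar marker UMIs, Cldn10 was at 374 in cluster 4 (343 to 408), 234 in the acinar-like, 306 in the duct-like, 261 in the haemoglobin-led cluster 1 and 166 in the macrophage-like cluster. In cluster 7 it was at 468 (377 to 574). Cluster 4 had 4 of 6 pro-acinar markers at 2 times their level in the other clusters or more.

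The granular or striated duct-like cluster (113 barcodes, led by Foxi1, Klk1b22 and Aldh1a3, with 8 of 10 duct markers raised) had the highest Cldn7, Cldn8, Cldn3 and Cldn4. Cldn7 was at 123 CPM there (82.7 to 177, 29 UMIs), above all 8 other clusters, the next being 26.6 CPM. Cldn8 was at 46.8 CPM (23.4 to 83.8) on 11 UMIs, against 12.2 CPM or less elsewhere, with intervals that overlapped those of clusters 6 and 8, where 2 and 0 UMIs were counted, and Cldn3 at 106 CPM (68.9 to 157), overlapping only cluster 7 (85.8 CPM) and cluster 8 (41.8 CPM, 15.3 to 91.0). Cldn4 was at 63.8 CPM (35.7 to 105, 15 UMIs), with an interval that overlapped that of cluster 1 (41.0 CPM, 27.2 to 59.2) among others. Per 1000000 acinar marker UMIs, Cldn7 was at 328 in the duct-like cluster and at 45.8 or less in the others, and Cldn4 at 170 and at 66.5 or less. Foxi1 and Ascl3, also among its leading genes, are known from ionocytes as well as ducts.

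Among the 9 clusters Tjp1 and F11r were highest in endothelial-like cluster 9 (67 barcodes, with all 7 endothelial markers raised), at 268 CPM (205 to 343) and 86.3 CPM (52.7 to 133), where Cldn3, Cldn4 and Cldn7 rested on 2, 2 and 1 UMIs. This cluster held 62 of the 102 Tjp1 UMIs of the library in 67 of 1402 barcodes. In the other 8 clusters Tjp1 was at 17.0 CPM or less and F11r at 20.9 CPM or less, although the F11r interval of cluster 8 (4.31 to 61.1) reached that of cluster 9. F11r was as high, within counting error, in cluster 10, which is outside the 9 with 48 barcodes and was led by S100a8, Retnlg and S100a9. It held 26 of the 80 F11r UMIs of the library (80.3 CPM, 52.4 to 118), against 20 in cluster 9, but Tjp1 at 9.26 CPM (3 UMIs). Endothelial-like cluster 8, which had little Malat1, held Tjp1 at 6.97 CPM (1 UMI). Ocln had 4 UMIs in the whole library, all in cluster 4.

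**Figure D5:**
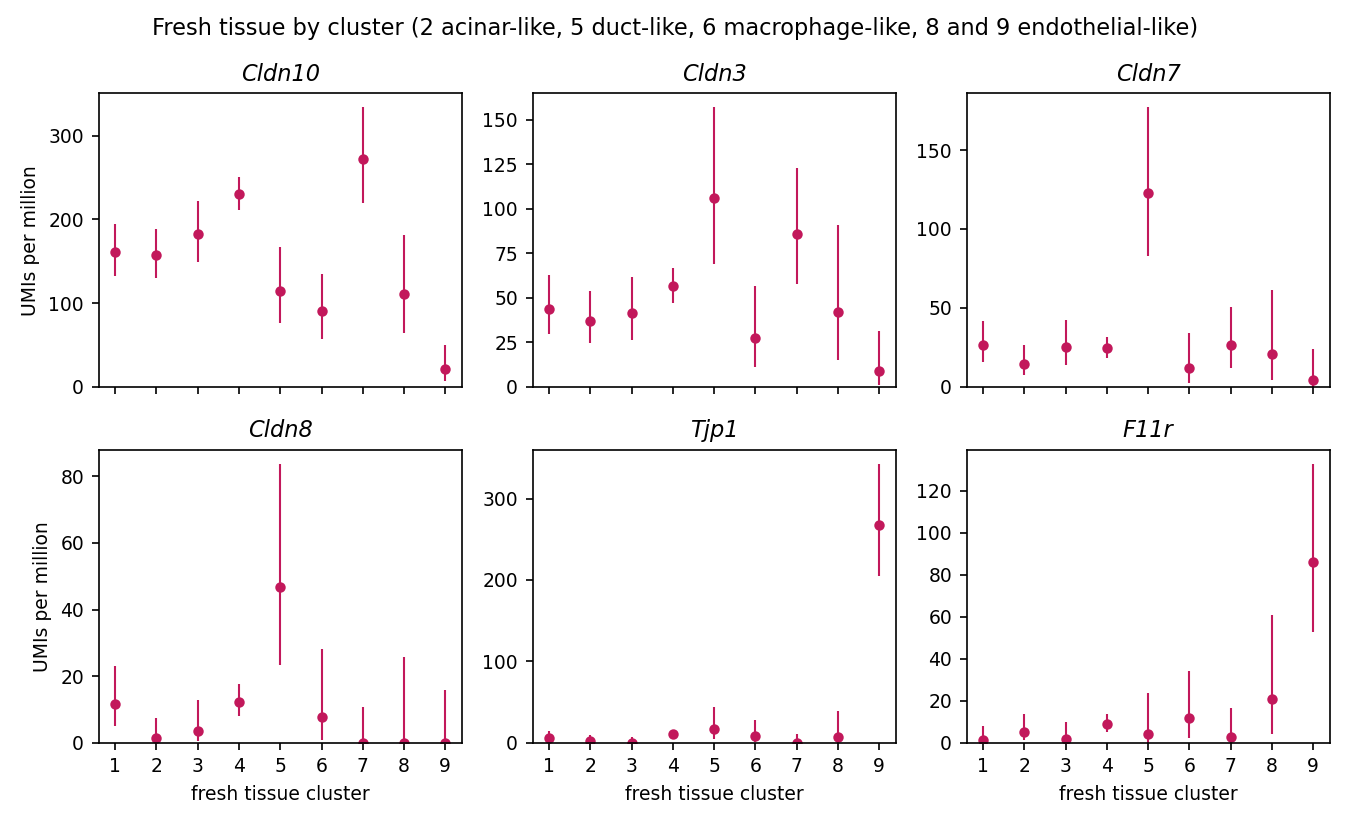
Level of 6 genes in CPM in the 9 fresh tissue clusters with at least 50 barcodes, with exact 95% Poisson intervals. Cldn7 and Cldn8 peak in the duct-like cluster 5, and Tjp1 (268 CPM) and F11r (86.3 CPM) in endothelial-like cluster 9, whereas Cldn10 is spread over most clusters.

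Likeness between genes was described by the Pearson correlation of log2(CPM + 1) over 24 clusters of at least 50 barcodes (5 of the 7-day control, 10 of day 11, 9 of tissue), among 7928 genes with at least 500 UMIs. The clusters share libraries, so the values describe and test nothing. Nearest to Cldn7 were Krt18 (r = 0.947), Spint2 (0.935) and Krt8 (0.934), and nearest to Cldn4 were Krt13 (0.934), Ptges (0.932) and Perp (0.930). Cldn1 was most like Evpl (0.910), Erbb3 and Elovl4, and Cldn3 like Nans (0.871), Plet1 and Qsox1.

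Cldn10 had A630073D07Rik (0.990), Mup5 (0.987) and Smgc (0.986) as its nearest genes. Ocln was nearest to Mboat1 (0.989), Ifi202b and Ptpn13, Tjp1 to Zcchc6 (0.953), Wnk1 and Rtf1, and F11r to Fosl2 (0.945), Kansl2 and Hbegf. Within the set the highest values were those of F11r with Tjp1 (0.85), Cldn1 with Cldn4 (0.84) and Cldn4 with Ocln (0.81). The neighbours Cldn3 and Cldn4 had r = 0.062, and Cldn10 was at -0.93 with Ocln. Cldn8 and Marveld2 had too few UMIs to enter.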

How the data were processed

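Single-cell 3′ RNA-seq of 5 libraries was used, 1 per group, with groups taken from the sample labels. The deposited UMI counts per gene and barcode were made by the authors with Cell Ranger. The labels' processing notes name version 5 and mm10, the study's methods name GRCm39, and the file headers give software version 3.0.1 (7-day and tissue libraries) and 7.0.0 (day 11). The counts were not normalised.

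Barcodes with at least 200 genes and at most 5% mitochondrial UMIs were kept. The barcodes with the highest doublet scores (Scrublet as in scanpy 1.11.5) were removed up to 0.8% per 1000 barcodes, because its automatic threshold was unstable. UMIs were summed per library and scaled to CPM, with exact intervals (Poisson for levels, Clopper-Pearson for shares, and for a ratio the binomial interval conditional on the sum of both counts). With 1 library per group no test across samples was possible and no p-value is given. Intervals, and the limit of 3 counts where none was found, cover counting error only, and the ratio code was tested on simulated data.

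Genes with at least 50 UMIs in both libraries together were compared, and past the fold means a log2 ratio, with 1 CPM added, of at least 0.5 between 7-day libraries and at least 1 otherwise. Clusters used 2000 variable genes without tight junction genes, 30 components, 15 neighbours and a Leiden resolution of 0.8 (leidenalg 0.10.2), and were named only from listed markers. From each of 7 gene lists the 2 genes with the largest ratio in a comparison, and any sharing a locus or complex with the set, could be named, and for likeness the 3 nearest genes. The members and lists were chosen with earlier results of these data known. Alternatives varied scaling, barcode filters, doublets, pseudocount, depth, weighting, the minimum for genes compared, clustering and the keratin minimum. A limit of 2500 genes per barcode in the study's methods could be read as lower or upper, so both were tried as alternatives.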

Additional observations from a re-analysis of the deposited data

Results flagged for a closer look

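The tissue library also held 11597 barcodes with fewer than 200 genes, which entered no comparison, with 11411201 UMIs and a median of 908 UMIs per barcode. Acinar markers took 59.4% of these UMIs. All 10 genes were above the limit that a count of 0 allows there (0.263 CPM). Cldn10 was at 143 CPM (interval 136 to 150, 1631 UMIs), beside 174 CPM in the kept tissue barcodes. Cldn3 was at 22.3 CPM, Cldn7 at 12.6 CPM, Cldn4 at 6.92 CPM and Cldn8 at 5.43 CPM. Tjp1 was at 5.96 CPM, F11r at 4.21 CPM, Cldn1 at 2.10 CPM, Marveld2 at 0.964 CPM and Ocln at 0.789 CPM. Whether these barcodes are cells or free RNA was not tested.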

How the results depend on the processing

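Of 9 genes compared between proton and control, 1 was past the fold, as were 9.40% of all genes in either direction. The count was 0 with Malat1 shares of at least 1% (8 genes compared, 10.6% of all genes) and with at least 2500 genes per barcode (7 genes, 14.2%). It was 2 with fewer than 2500 genes (11.5%), with the mean over barcodes (12.7%), with a pseudocount of 0.1 CPM (13.5%) and after thinning to 1000 UMIs (8 genes, 16.8%). Between proton and photon it was 0, against 1 with Malat1 shares of at least 1% (5.56% of all genes) and 2 with at least 2500 genes (8.55%). The count ranged from 3 to 5 for photon (4 as reported), 3 to 4 for day 11 against day 7 (4), 6 to 9 for tissue against day 7 (8) and 5 to 7 for day 11 against tissue (7). The share of all genes past the fold ranged from 6.64% to 17.3% for photon (9.54% as reported) and from 37.7% to 59.7% for day 11 against day 7 (54.8%). It ranged from 40.3% to 89.0% for tissue against day 7 (65.3%) and from 40.8% to 93.5% for day 11 against tissue (85.1%). Among values past the fold as reported, direction changed for Tjp1 in tissue against day 7 (0.066 with median-of-ratios scaling, 0.98 with Malat1 shares of at least 1%) and, for day 11 against tissue, for F11r (-0.025) and Marveld2 (-0.17) with median-of-ratios scaling and for Tjp1 (-0.068) and F11r (-0.087) with Malat1 shares of at least 1%. Values under the fold also changed sign, among them Cldn7 for photon (0.23) and Cldn1 for proton (0.40) with at least 2500 genes, for day 11 against day 7 Cldn3 (-0.92) and Ocln (-0.84) with median-of-ratios scaling and Marveld2 (-0.25) after thinning, for tissue against day 7 Cldn3 (-0.15) with all deposited barcodes, and for day 11 against tissue Cldn1 (-1.12) with median-of-ratios scaling. The cause was not tested. Median-of-ratios scaling moved the median of all genes from 0.99 to 0.092 (day 11 against day 7), from -1.23 to -0.24 (tissue against day 7) and from 1.97 to 0.19 (day 11 against tissue). Of 710 single values, 549 moved by less than their interval, 155 by more, and 6 were past the fold and changed direction. Counting values under the fold as well, 51 of 620 log2 ratios changed sign. The keratin axis gave no end-to-end value for the 7-day libraries, whose last bin held under 50 barcodes. No paired analysis was possible because each group had 1 library. Cldn10 had too few UMIs for the 7-day comparisons and that of day 11 with day 7. It had 1, 0, 0 and 16 UMIs in the control, photon, proton and day 11 libraries, each with more UMIs in total than tissue. Low counts leave wide intervals for Cldn8, for Marveld2 and, in tissue, for Ocln and Cldn1.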
